A study of Mus musculus with 9 samples.

Results

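The Toll-like receptors are membrane proteins with which macrophages and other cells sense parts of microbes and damaged cells, and Cd14 is the co-receptor that hands lipopolysaccharide to Tlr4 and lipopeptides to Tlr2. Tlr1, Tlr2, Tlr4 and Tlr6 act at the cell surface, while Tlr3, Tlr7, Tlr8, Tlr9 and Tlr13 sense nucleic acids inside endosomes, where the transport protein Unc93b1 carries them. Most of them signal through the adaptor Myd88, and Tlr3 through Ticam1. Macrophages are known for carrying many of these receptors together, and fibroblasts carry a smaller set. The 10 genes, 9 receptors and Cd14, were taken by symbol from a table of 18049 genes, and all 10 are listed there. Tlr5, the receptor of flagellin, is the only other Toll-like receptor in the table used here. Tlr11 and Tlr12 were not analysed here.

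RNA of 9 clones of primary cells cultured from pancreatic tumors of WTg mice (MPC) was sequenced from stranded mRNA libraries. All 9 clones carry the genotype EL1-Luc/EL1-Tag x CAG-Mettl3, in which the acinar elastase promoter drives luciferase and SV40 large T antigen and the broadly active CAG promoter drives Mettl3, and the animals' age is not given in the sources used here. Each clone was a colony picked from passaged tumor cells, so a clone is a single colony and no group of another genotype was analysed here. The labels enter no treatment for the clones, yet a protocol field lists NMS-P937 (80 nM, 24 h), and nothing in the table tells treated from untreated clones.

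The libraries' column names start with 1 of 3 prefixes of unstated meaning, called A (1 library), B (4 libraries) and C (4 libraries) here. A1, B1 to B4 and C1 to C4 are names only. Which animals the clones came from is not stated, so p-values measure only the spread between these clones. Each library held between 12198037 and 20453901 reads, and A1 had the fewest. Values are given as normalized counts, the reads of a gene times the authors' factor for that library, and the floor of 3 reads lay between 3.79 and 6.56 normalized counts. Xist was at 29664 to 32912 normalized counts in the prefix B clones and at 0 to 8.39 in the others, while the Y-linked gene Ddx3y was at 0 in all prefix B clones and at 2376 to 2720 in the others. Xist without Ddx3y marks female cells, and Ddx3y without Xist marks male cells. The prefix B clones and the others therefore came from animals of different sex. Prefix, sex and animal cannot be told apart between prefixes B and C. Mettl3 was at 2184 in A1 and at 468 to 621 in the other 8 clones.

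The labels call these cells fibroblasts, and the clones held RNA of both fibroblast and macrophage markers. Of 16 macrophage markers, 15 were above the floor in every clone, and their sum was 2.20% to 3.42% of all normalized counts. The defining genes Csf1r and Adgre1 were at 20587 to 59537 and at 12904 to 27704 normalized counts. Of 14 fibroblast markers, 13 were above the floor in every clone, and the 14 summed to 1.43% to 3.88%. Lyz2, with a mean of 407389, is the largest part of the macrophage sum, and Fn1, with 276558, that of the fibroblast sum. The markers not above the floor in every clone were Cd163, at 4.38 to 35.6, and Lum, at 0 to 68.0. None of 6 T and NK cell markers is listed in the table, Pax5 is the only listed gene of 5 B cell markers and reached 4.43 normalized counts, and Zbtb46 is the only one of 6 dendritic cell markers, at 25.2 to 49.8. S100a8, the only listed gene of 7 neutrophil and mast cell markers, was at 2.19 to 24.6. Of 7 epithelial markers, 3 were above the floor in every clone, and the 7 summed to 27.5 to 331. Of 4 endothelial markers only Kdr was above it in every clone, at 142 to 395. Of 6 acinar markers only Cela1 was, at 144 to 293. The acinar marker Ctrb1 was at 610 in C3, 43.7 in C2 and 0 to 7.64 in the others.

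Promoter sequences, the 250 bases before the transcription start in RefSeq on GRCm38.p6, were found for 7 of the 10 genes, with 9 promoters in all. The first promoter of each of these 7 genes is shown, because most receptors moved together between clones, as described below. The motifs searched were chosen with earlier results known, and PU.1 is the factor encoded by the macrophage marker Spi1. Sequences run 5′ to 3′ on the strand of the gene, and capitals mark matches to the motifs searched on both strands. The PU.1 core was searched as GAGGAA, the AP-1 motif as TGANTCA and the TATA box as TATAAA, and the IRF motif as a repeat of GAAA with any pair of bases between. 
Tlr1 (chr5:64933559-64933808, minus strand): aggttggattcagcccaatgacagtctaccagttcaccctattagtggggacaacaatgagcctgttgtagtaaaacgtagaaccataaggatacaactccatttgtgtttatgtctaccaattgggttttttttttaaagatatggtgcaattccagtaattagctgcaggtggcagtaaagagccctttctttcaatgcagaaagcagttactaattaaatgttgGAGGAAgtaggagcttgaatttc
Tlr8 (chrX:167264330-167264579, minus strand): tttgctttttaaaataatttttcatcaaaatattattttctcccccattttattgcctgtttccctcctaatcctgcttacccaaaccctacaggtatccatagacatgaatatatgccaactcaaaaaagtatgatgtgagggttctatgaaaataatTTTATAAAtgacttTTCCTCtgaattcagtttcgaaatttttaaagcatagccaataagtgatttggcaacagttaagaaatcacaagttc
Tlr9 (chr9:106222348-106222597, plus strand): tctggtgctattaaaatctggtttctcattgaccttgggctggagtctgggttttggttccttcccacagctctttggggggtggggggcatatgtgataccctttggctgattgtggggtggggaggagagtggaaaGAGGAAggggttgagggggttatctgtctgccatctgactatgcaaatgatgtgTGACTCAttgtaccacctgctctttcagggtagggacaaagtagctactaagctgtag
Tlr13 (chrX:106143025-106143274, plus strand): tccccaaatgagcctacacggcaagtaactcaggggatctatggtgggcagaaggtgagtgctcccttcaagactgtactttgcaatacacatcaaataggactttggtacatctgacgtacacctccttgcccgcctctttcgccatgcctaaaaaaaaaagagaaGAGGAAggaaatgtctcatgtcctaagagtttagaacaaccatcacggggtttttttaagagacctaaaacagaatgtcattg
Tlr6 (chr5:64959167-64959416, minus strand): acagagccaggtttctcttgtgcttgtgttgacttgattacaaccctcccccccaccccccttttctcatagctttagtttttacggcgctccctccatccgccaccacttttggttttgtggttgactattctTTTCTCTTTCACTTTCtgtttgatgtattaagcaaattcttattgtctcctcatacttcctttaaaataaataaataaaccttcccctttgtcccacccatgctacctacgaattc
Tlr2 (chr3:83841609-83841858, minus strand): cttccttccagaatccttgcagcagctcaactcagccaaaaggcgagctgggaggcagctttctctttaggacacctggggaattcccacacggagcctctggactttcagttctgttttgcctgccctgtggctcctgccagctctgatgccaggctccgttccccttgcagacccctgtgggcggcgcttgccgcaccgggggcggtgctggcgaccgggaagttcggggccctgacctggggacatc
Tlr3 (chr8:45410381-45410630, minus strand): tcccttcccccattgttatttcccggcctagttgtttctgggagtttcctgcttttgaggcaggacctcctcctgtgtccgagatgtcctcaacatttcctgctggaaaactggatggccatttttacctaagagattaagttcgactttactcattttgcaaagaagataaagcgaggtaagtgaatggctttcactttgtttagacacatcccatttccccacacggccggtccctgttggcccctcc

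The PU.1 core lay 23 bases before the start in the first promoter of Tlr1, 112 in Tlr9, 83 in Tlr13 and 77 in Tlr8, where it is on the opposite strand. Among all 32851 promoters of the same length, 23.3% hold it. The Tlr8 promoter also holds overlapping TATA matches on both strands, 91 and 89 bases before the start, a motif present in 12.4% of promoters. The AP-1 letters 58 bases before the start of Tlr9 occur in 6.75% of promoters. The first promoter of Tlr6 holds a pair of overlapping IRF matches 116 and 110 bases before the start, a motif found in 2.98% of promoters, and its second promoter, not printed, holds 3 TATA matches. Neither window searched for Tlr6 holds the PU.1 core. The gene reaches to base 64970942 in RefSeq, beyond both windows, so the region before that end was not searched. Tlr6 is also among the genes that rose with the macrophage markers, and any relation of the motifs to that rise was not tested. Tlr3 also reaches beyond its window, to base 45411075 in RefSeq, and the region before that end was not searched. Tlr2 ends at base 83841824, inside its window, so the region before that end was searched only in part. No match to these letters was found in the windows of Tlr2, of Tlr3 and of the second start of Tlr1. These are letter matches only, and no binding was measured.

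The surface receptors of lipopeptides were read in every clone. Tlr2, which pairs with Tlr1 or Tlr6, was at 2102 ± 308 normalized counts (SD, n = 9), with a lowest value of 1552 in C1, a median of 2098 and a highest of 2598 in C4. The prefix C clones held both ends of this range, and the prefix B clones lay between 1932 and 2299. Tlr1, the partner that recognises triacylated lipopeptides, was at 484 in C2, 595 at the median and 975 in B3, with a mean of 655 ± 158 (SD, n = 9). All 4 prefix B clones, at 651 to 975, lay above all 4 prefix C clones, at 484 to 595. Tlr6, the partner for diacylated lipopeptides, was lowest in A1 at 149, had a median of 235 and was highest in B3 at 344, with a mean of 256 ± 65.3 (SD, n = 9). Its A1 value rests on 68 reads, and the next lowest clone was C2 at 194. Tlr1 and Tlr6 lie on chromosome 5 with 19491 bases between them in RefSeq. The ratio of their normalized counts was 3.90 in A1 and 1.86 to 2.83 in the other 8 clones, since A1 was low in Tlr6 but near the prefix C clones in Tlr1.

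The lipopolysaccharide receptor Tlr4 and its co-receptor Cd14 differed in which clone was highest. Tlr4 was at 1525 in C2, 2035 at the median and 2499 in B3, with a mean of 2053 ± 283 (SD, n = 9). The prefix B clones, at 2112 to 2499, all exceeded the prefix C clones, at 1525 to 2035, and A1 was at 1906. Cd14 was at 3031 in C4, 3623 at the median and 6219 in A1. The A1 value has a 95% Wilson interval of 5995 to 6452 normalized counts, which covers counting error only, while the next highest clone, C3, was at 3913 with an interval of 3771 to 4061. A1 was thus 1.76 times the mean of the other 8 clones, 3527 ± 332 (SD, n = 8), and because prefix A has 1 library this difference has no replicate check. The ratio of Cd14 to Tlr4 was 3.26 in A1 and 1.49 to 2.19 in the others.

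**Figure D1:**
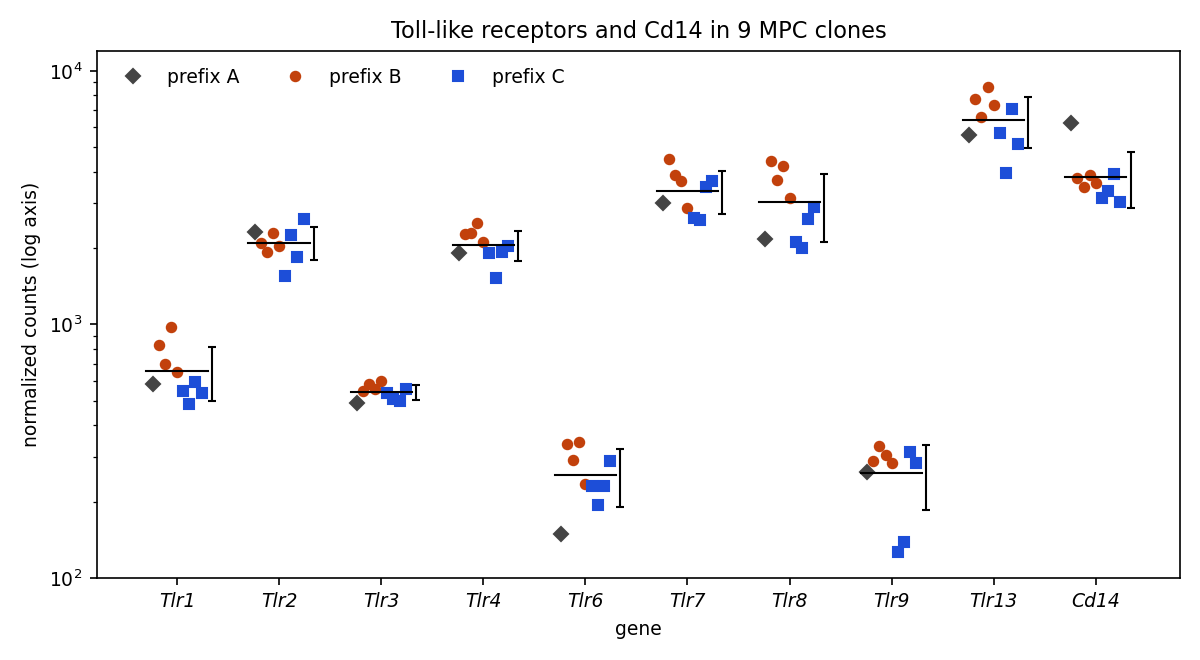
Normalized counts (log axis) of the 9 receptors and Cd14 in each of the 9 clones. Diamonds, circles and squares stand for prefixes A, B and C, the horizontal line is the mean and the bar beside it the SD (n = 9). Cd14 in A1, at 6219, stands above the other clones, while Tlr1, Tlr4 and Tlr8 have all prefix B clones above all prefix C clones.

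Among the endosomal receptors, Tlr3 and Tlr8 had the smallest and the largest coefficient of variation of all 10 genes. Tlr3, which senses double-stranded RNA, was at 488 in A1, 543 at the median and 596 in B4, a coefficient of variation of 6.78% over 9 clones. Its variance was 1.62 times that of counting alone, so most of its spread was of the size that read counting gives. Tlr7, a sensor of single-stranded RNA, was at 2572 in C2, 3479 at the median and 4508 in B1, with a mean of 3368 ± 644 (SD, n = 9). Tlr8, its close relative and neighbour on chromosome X, was at 1999 in C2, 2893 at the median and 4400 in B1, a coefficient of variation of 29.9%. Every prefix B clone, from 3152 to 4400, exceeded every prefix C clone, from 1999 to 2893, and A1 was at 2171.

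Tlr9, the receptor of unmethylated CpG DNA, was at 259 ± 74.2 (SD, n = 9), with 127 in C1 and 139 in C2 against 260 to 330 in the other 7 clones. The values in C1 and C2 rest on 98 and 89 reads. The 4 prefix C clones were therefore divided into a low and a high pair, the latter at 284 and 313, within the range of prefixes A and B. Tlr13, a receptor of bacterial ribosomal RNA also encoded on chromosome X, was at 3937 in C2, 6595 at the median and 8668 in B3, with a mean of 6415 ± 1464 (SD, n = 9). C3, at 7058, lay inside the prefix B range of 6595 to 8668. Tlr5 was at 84.1 to 193 in prefixes B and C and highest in A1 at 289.

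Of the 10 genes, 9 varied more between clones than the median of 10947 genes with means between 100 and 10000 normalized counts, both by coefficient of variation (median 13.3%) and by variance over that of counting (median 9.37), and Tlr3 was the exception by both measures. Variance over that of counting was largest for Tlr13, at 223, where the 95% counting interval of a single clone is at most 3.90% of the value to each side. This measure grows with the number of reads, and the coefficient of variation of Tlr13 was 22.8%, below the 29.9% of Tlr8. For Tlr6 the counting interval is up to 23.9%, so differences between single clones in Tlr6 are less firm than those in Tlr13.

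Whether the receptors differed between the column-name prefixes was tested on prefixes B and C with limma across 16985 genes. Of the 10 genes, 0 passed an adjusted p of 0.05, as did 0 with limma's voom, and 4 had an unadjusted p under 0.05. Of all genes, 0.171% passed, 0.0707% higher in prefix B and 0.1% higher in prefix C, and 3141 had an unadjusted p under 0.05. All 10 differences were above 0, with a median of 0.34 on the log2 scale against 0.016 over all genes, and 3 of the 10 had prefixes without overlap, against 9.47% of all genes. The largest was that of Tlr8, 0.69 on the log2(normalized counts + 1) scale with a standard error of 0.14 (limma adjusted p = 0.120), with means of 3868 ± 555 in prefix B and 2402 ± 416 in prefix C (SD, n = 4 each). Tlr9 followed at 0.60 (standard error 0.29), Tlr1 at 0.53 (0.13) and Tlr13 at 0.50 (0.17), with limma adjusted p of 0.314, 0.153 and 0.196. Tlr4 differed by 0.32 (standard error 0.098, limma adjusted p = 0.182). Tlr6, Tlr7, Cd14 and Tlr3 had differences of 0.35, 0.27, 0.14 and 0.12, and Tlr2 the smallest, 0.046 with a standard error of 0.15. The 16 macrophage markers were above 0 in the same comparison, 16 of 16 with a median of 0.37. The 14 fibroblast markers had a median of -0.69, with 3 above 0, which were Lum (2.07), Dcn (1.79) and Fap (0.20). In either list 0 were called. In these bulk libraries, fewer cells of a type and less of an RNA per cell cannot be told apart. Divided by the geometric mean of the macrophage markers, an alternative chosen after seeing the data that moved the median of all genes to -0.49, 7 of the 10 differences were below 0, and those of Tlr2 (-0.47) and Cd14 (-0.38) passed with limma adjusted p of 0.048 and 0.045. Under that scaling 45.4% of all genes were called higher in prefix C, so 2 of 10 is below the share over all genes. Of 543 genes on chromosome X other than Xist, 3 were called, with a median of -0.0071.

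**Figure D2:**
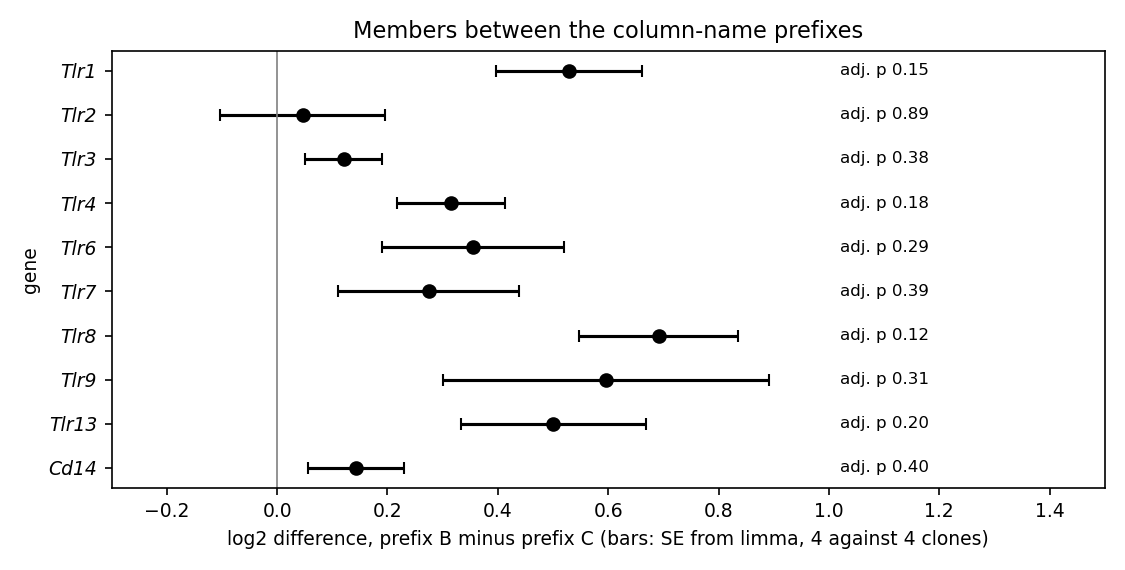
Log2 difference between the means of prefix B and prefix C for each gene, with bars for the standard error from limma (4 against 4 clones) and the adjusted p at the right. All 10 points lie above 0, from 0.046 for Tlr2 to 0.69 for Tlr8, and none passes 0.05.

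The receptors were then set against the macrophage markers across all 9 clones, a comparison added after seeing the data. The measure was the mean of the log2 values of the 16 markers, which spanned 13.1 to 14.1, with every prefix B clone (13.8 to 14.1) above every prefix C clone (13.1 to 13.6) and A1 at 13.3. Of the 10 genes, 7 rose with the markers at a limma adjusted p under 0.05, namely Tlr1, Tlr4, Tlr6, Tlr7, Tlr8, Tlr9 and Tlr13, and 0 fell, against 9.28% of 16946 genes that rose and 6.94% that fell. Their median slope was 0.79 log2 per log2 unit of the marker mean, beside 0.047 over all genes.

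Tlr8 followed the markers most closely, with a slope of 1.30 (standard error 0.10, limma adjusted p = 0.0020) and r = 0.982 over 9 clones. Tlr4 had the next highest r, 0.931, with a lower slope of 0.59 (standard error 0.097, limma adjusted p = 0.0064). Slopes were 0.90 for Tlr1, 0.95 for Tlr13, 0.99 for Tlr6 and 0.68 for Tlr7, with limma adjusted p of 0.0074, 0.0090, 0.026 and 0.027. That of Tlr9, 1.19 with a standard error of 0.35, was nearest to the threshold (limma adjusted p = 0.048), and leaving out any of 7 of the 9 clones ended this call. Tlr3 had a slope of 0.19 (standard error 0.11, adjusted p = 0.28 from limma) and Tlr2 one of 0.068 (standard error 0.22, adjusted p = 0.87 from limma). Cd14 had a slope of -0.064 (standard error 0.31, adjusted p = 0.91 from limma), which is set by A1. Without A1 it was 0.27 with r = 0.630 and an adjusted p of 0.20 from limma.

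All prefix B clones had higher macrophage markers than all prefix C clones, so prefix and marker level moved together. With prefix as a term in the fit over the 8 clones of prefixes B and C, 14 genes passed and 0 of the 10, with Tlr8 at a slope of 1.15 (limma adjusted p = 0.080). Within prefixes, r was 0.926 for Tlr8, 0.856 for Tlr4, 0.824 for Tlr7, 0.811 for Tlr6, 0.783 for Tlr9, 0.762 for Tlr13 and 0.737 for Tlr1. It was 0.364 for Cd14, 0.233 for Tlr2 and -0.161 for Tlr3. Leaving out C2, the clone with the lowest markers, left 3 of the 7 calls, and leaving out B1 left 4. These values are descriptions over clones that share library preparation and scaling.

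**Figure D3:**
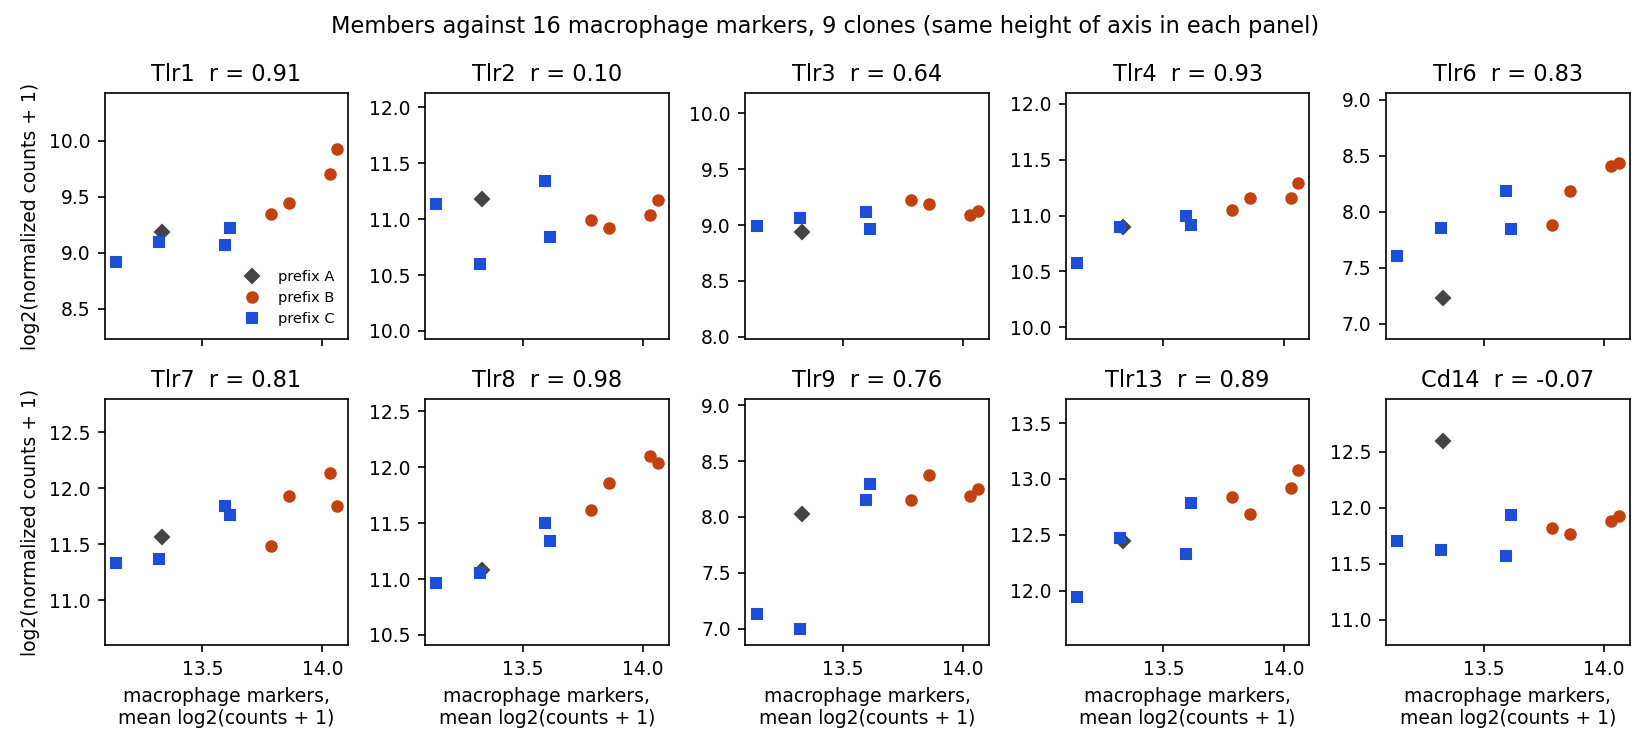
Each panel plots log2(normalized counts + 1) of a gene against the mean log2(normalized counts + 1) of 16 macrophage markers in the 9 clones, marked by prefix, with axes of the same height. Tlr8 (r = 0.982) lies close to a line, Tlr2 (r = 0.101) does not, and A1 stands apart for Cd14 (r = -0.068).

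Against the mean of 13 fibroblast markers, which had r = -0.799 with the macrophage mean, 4 of the 10 genes fell and 0 rose, beside 7.07% of 16949 genes that fell and 5.51% that rose. The 4 were Tlr8 with a slope of -0.71, Tlr6 with -0.70, Tlr13 with -0.59 and Tlr1 with -0.57 (limma adjusted p = 0.045, 0.031, 0.039 and 0.031). Tlr4 had a slope of -0.34 (standard error 0.10, adjusted p = 0.060 from limma), and Cd14 and Tlr2 had values above 0, 0.24 and 0.11, that did not pass. No call was left without B1, without B3 or without C2, and none with prefix as a term.

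**Figure D4:**
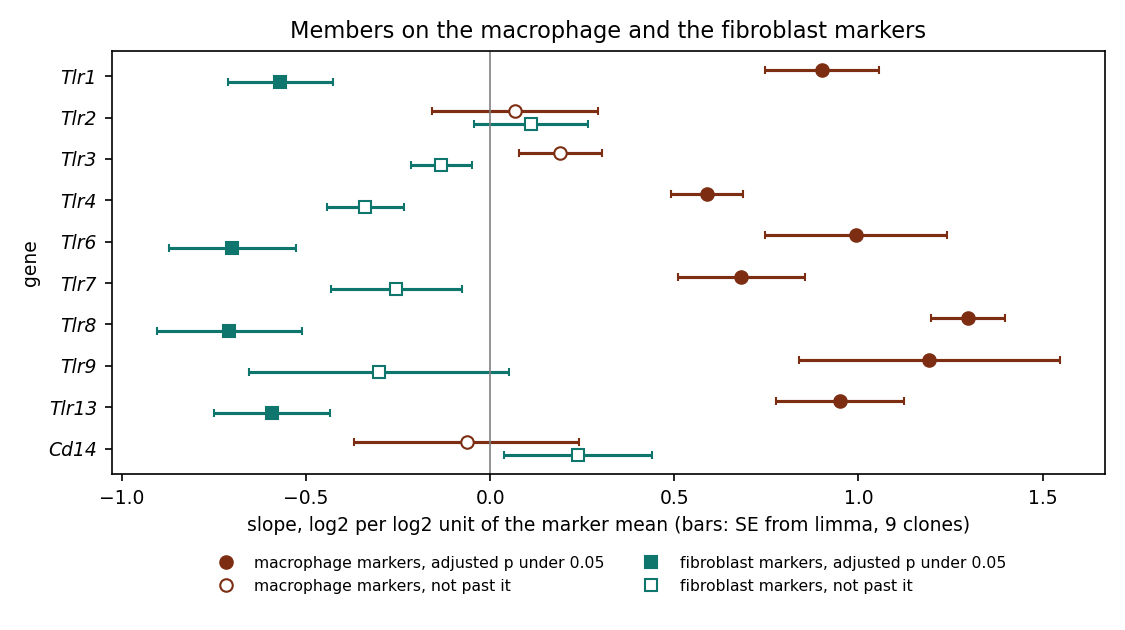
Slopes of each gene on the mean log2 of the macrophage markers (circles) and of the fibroblast markers (squares) over 9 clones, with bars for the standard error from limma and filled symbols for an adjusted p under 0.05. For the macrophage markers 7 circles are filled, all above 0, and for the fibroblast markers 4 squares are filled, all below 0.

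The partners of the receptors were examined in the same fit on the macrophage markers, beside 9.28% of all genes rising and 6.94% falling. Of 8 accessory and trafficking genes, 4 rose, and these were Unc93b1 (slope 1.20), Ly96, the protein bound to Tlr4 that holds lipopolysaccharide (0.90), Cnpy3, a chaperone of the receptors (0.65), and Cd180, a Toll-like receptor homologue (0.42). Unc93b1 was at 6403 normalized counts in C2 and 14067 in B3, and Ly96 at 144 in A1 and 294 in B1. Ly86, which pairs with Cd180, was at 67.8 in A1 and 990 to 3645 in the other 8 clones, whereas Cd180 was at 3142 in A1, inside the range of the others, 2668 to 3950. The ratio of Ly86 to Cd180 was 0.0216 in A1 and 0.371 to 0.923 in the others. Cd36 (4.05, standard error 1.47) and Ly86 (3.19, standard error 1.31) had the largest slopes of the 8 without passing (limma adjusted p = 0.091 and 0.13). Lbp and the chaperone Hsp90b1 did not pass either. On the fibroblast markers, 4 of the 8 fell, namely Cd36 (-3.68), Ly86 (-3.04), Unc93b1 (-0.77) and Ly96 (-0.62), and Lbp rose (3.29). Over all genes 7.07% fell and 5.51% rose there.

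Of 5 adaptors, Ticam2, the bridge between Tlr4 and Ticam1, rose with a slope of 1.09 (limma adjusted p = 0.0086), and the other 4 did not pass. Myd88 was closest, at 0.42 (standard error 0.13, adjusted p = 0.056 from limma), with 1185 normalized counts in C2 and 1670 in B3. Among 14 kinases, ligases and signalling proteins that work with them, 6 rose, namely Pik3ap1 (1.29), Irak4 (0.90), Irak2 (0.57), Ikbkb (0.55), Tbk1 (0.47) and Tab2 (0.33). Of 9 transcription factors, 5 rose, and the largest slopes were those of Irf8 (1.27) and Irf5 (1.14), followed by Rel (0.66), Nfkb1 (0.62) and Rela (0.29). In the list of 10 negative regulators, Cyld, a deubiquitinase, rose (0.40) and Il1rl1, a receptor that also signals through Myd88, fell (-2.18), with a median slope of 0.0018.

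The genes that these receptors are known to induce did not move as a single group. Of 8 early response genes, Il1b rose with the macrophage markers (1.98, limma adjusted p = 0.049), whereas Il6 and Cxcl1 fell (-3.30 and -3.40, limma adjusted p = 0.032 and 0.022), and 5 did not pass. On the fibroblast markers, Il6 rose (2.26, limma adjusted p = 0.044) and Cxcl1 did not pass (1.84, adjusted p = 0.13 from limma). In the fit on the macrophage markers, 7 of 14 fibroblast markers fell and 0 rose. The slopes of Dcn (2.46) and Lum (3.73) were above 0 there without passing. Why Il6 and Cxcl1 fell was not tested. Il6 was at 31.8 normalized counts in B3 and 579 in C2, and Cxcl1 at 4.27 in B2 and 74.9 in C2. The Cxcl1 value in B2 is at the floor of 3 reads. Il1b was at 14.2 in C1 and 61.1 in B1, with 10 to 48 reads over the clones. Of 12 other innate sensors, 5 rose, which were the beta-glucan receptor Clec7a (3.30), the RNA sensors Dhx58 (0.75) and Ifih1 (0.60), the DNA sensor Aim2 (0.55) and the adaptor Mavs (0.30). Tlr5 had a slope of -0.67 (adjusted p = 0.41 from limma).

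For partners and relatives of the receptors, and for the receptors against the macrophage markers, 8 relations were tested across the 9 clones. They were chosen with earlier results of these data known. Exact two-sided permutation tests were used with Benjamini-Hochberg adjustment over these 8, which does not account for that choice. Unc93b1 was set against Tlr13 alone and not against the other endosomal receptors. Tlr8 followed Tlr7 with r = 0.841 (exact permutation p = 0.0073, adjusted p = 0.029) and rho = 0.883 (exact permutation p = 0.0031, adjusted p = 0.025). Unc93b1 followed Tlr13 with r = 0.860 (exact permutation p = 0.0025, adjusted p = 0.020) and rho = 0.833 (exact permutation p = 0.0083, adjusted p = 0.029). After dropping the 2 clones with the receptor on the x axis farthest from its median, r was 0.702 and 0.701, with an exact permutation adjusted p of 0.16 for both, over 7 clones. Centred within prefixes, r was 0.938 for Tlr8 with Tlr7 and 0.805 for Unc93b1 with Tlr13, with exact permutation adjusted p of 0.083 and 0.27. Ly96 and Tlr4 had r = 0.740 (exact permutation p = 0.022, adjusted p = 0.053) and rho = 0.817 (exact permutation p = 0.011, adjusted p = 0.029), so the rank measure passed and the linear one did not. Without the 2 farthest clones r was 0.673, and centred within prefixes it was 0.501. A high r was not particular to the pairs tested here. Outside these 8 relations, r was 0.897 for Tlr4 with Tlr8 and 0.893 for Tlr1 with Tlr8, above that of Tlr8 with Tlr7.

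Apart from Ly96 with Tlr4, the 4 pairs of surface partners did not pass by either measure in these 9 clones. This does not show that they vary independently. For Tlr1 with Tlr2 r was 0.079 and rho -0.13 (exact permutation p = 0.84 and 0.74), and for Tlr6 with Tlr2 they were 0.050 and 0.050 (exact permutation p = 0.90 and 0.91). Without the 2 farthest clones, r was 0.087 and -0.23, and within prefixes 0.070 and 0.36. Cd14 with Tlr4 had r = 0.031 and rho = 0.10 (exact permutation p = 0.93 and 0.81), and Cd14 with Tlr2 had r = 0.21 and rho = 0.050 (exact permutation p = 0.56 and 0.91). After adjustment over the 8 relations, these 4 relations had exact permutation p between 0.90 and 0.93 for r and of 0.91 for rho. Without A1, r became 0.45 for Cd14 with Tlr4 and -0.078 for Cd14 with Tlr2. Without the 2 farthest clones these were -0.30 and 0.41, and within prefixes 0.031 and -0.17. The sum of the 9 receptors had r = 0.734 and rho = 0.667 with the sum of the macrophage markers, most of which is Lyz2. This relation did not pass (exact permutation adjusted p = 0.053 for r and 0.12 for rho). Centred within prefixes, its r was 0.555 (exact permutation adjusted p = 0.56). With the mean of the markers' log2 values, an alternative that was not planned, r was 0.987.

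Tlr7 and Tlr8 are neighbours on chromosome X with 39050 bases between them in RefSeq, and their ratio separated the prefixes. Tlr8 over Tlr7 was 0.956 to 1.14 in the prefix B clones, 0.746 to 0.805 in the prefix C clones and 0.719 in A1, without overlap. This ratio was noticed after the values were seen and has no test. It moved with Xist, which was high in the prefix B clones, and its relation to Xist or to the macrophage markers was not tested. Tlr13 over Tlr7 overlapped between the prefixes, with 1.69 to 2.56 in prefix B and 1.40 to 2.15 in prefix C. These ratios of normalized counts are not corrected for gene length, so they compare clones and not the levels of the genes.

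**Figure D5:**
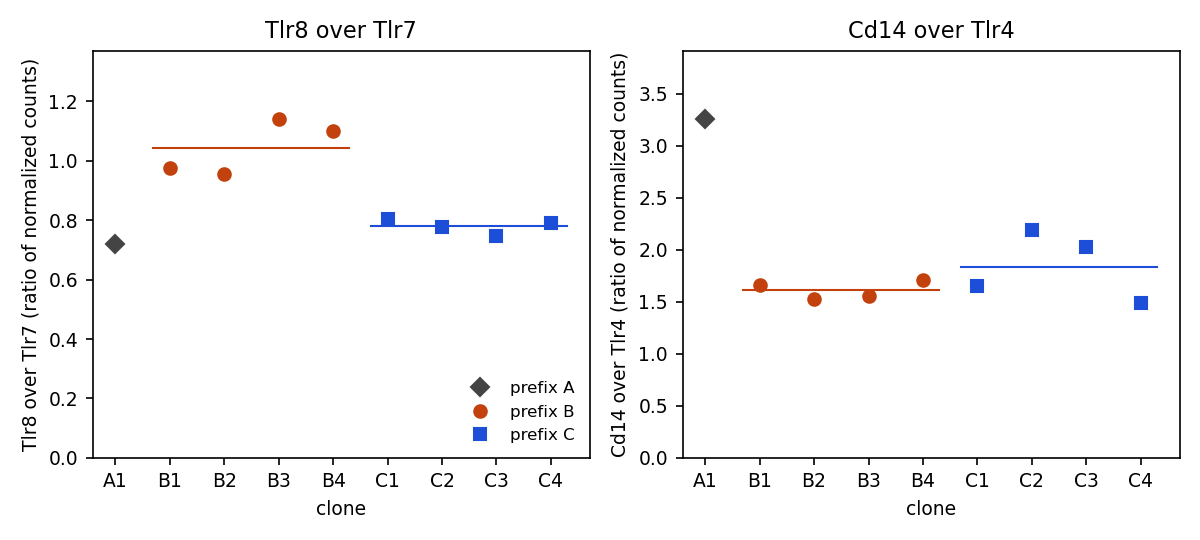
Ratios of normalized counts of Tlr8 to Tlr7 (left) and of Cd14 to Tlr4 (right) in each clone, with lines for the means of prefixes B and C. The left panel has all prefix B clones at 0.956 or above and all other clones at 0.805 or below, and the right panel has A1 at 3.26 above the others, at most 2.19.

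The gene most like each member but Tlr8 over the 9 clones was sought by Pearson's r among the 12291 genes whose mean reached 50 normalized counts. These were Frat1 for Tlr13 (r = 0.994, 12.5 to 96.9 normalized counts), Gpr108 for Tlr4 (0.980), Anks1 for Tlr1 (0.976), Lmo2 for Tlr6 (0.975), Tmem30a for Tlr3 (0.969) and Tbc1d14 for Tlr7 (0.969). For Tlr9 it was the pseudogene Nlrp1c-ps, with r = 0.975 but rho = 0.617, whose reads can be shared with its relatives. Med17 was nearest to Cd14, with 0.964 over all clones and 0.865 without A1. Tlr2 had the lowest best match, Ddx52 with 0.904. With 9 clones and this many candidates, high values are common, and they are given as descriptions. Among the 10 genes themselves, the highest r were 0.897 for Tlr4 with Tlr8, 0.893 for Tlr1 with Tlr8 and 0.886 for Tlr1 with Tlr4.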

How the data were processed

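RNA of 9 WTg MPC clones was made into TruSeq stranded mRNA libraries. Per the labels it was extracted with ISOGEN, while the study's methods name an RNeasy kit for these cells. The submitters' processing notes name FastQC 0.11.9, STAR 2.7.10, RSEM 1.3.3 and GRCm38, without their roles. The authors deposited log2 values, which equal the log2 of reads times 1 factor per library plus an offset of 4. The table also holds 6 columns of MEF libraries, which were not used in any step. Undoing the log2 and the offset gave normalized counts, and the spacing of low values gave the worth of 1 read, 1.26 to 2.19 normalized counts. All values under 1000 reads were then whole, within 0.02 reads beside the file's rounding. No clone repeated another, since the closest pair, B1 and B4, differed over 15018 genes with a chi-square per degree of freedom of 22.7, and log2 values of 2 libraries correlated at 0.946 to 0.982. Reads of all isoforms were counted together.

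The members and the gene lists were chosen with earlier results of these data known. Column names do not match the sample titles, so the libraries are replicates of 1 group, and prefixes were treated as possible batches. Prefixes B and C were compared with limma and its trended eBayes step (Benjamini-Hochberg adjustment, threshold 0.05) on log2(normalized counts + 1) for genes with a mean of at least 1. The pseudocount makes fold changes of low genes too small. Slopes on the mean log2 of marker genes used the same test without the markers themselves and were added after seeing the data. Correlations used exact two-sided permutation over all 362880 pairings. Named genes are the 10 members, the genes of the pathway and marker lists that a sentence counts, and the gene most like each member, which for Tlr8 is not reported here. Promoters were read from RefSeq's GRCm38.p6 table, and Tlr4, Tlr7 and Cd14 have none printed. Without gene lengths, the planned order of levels was not tested, and no level is compared between genes. Alternatives were other scalings (median of ratios, upper quartile, total, macrophage markers), a pseudocount of 0.1, no filter or a mean of at least 50, voom on recovered reads, prefix as a term, and leaving out each library. Intervals and floors cover counting error only. Versions were limma 3.58.1 in R 4.3.3, and scipy 1.17.1, pandas 2.3.3, numpy 2.4.6 and, for plots, matplotlib 3.10.9 in Python 3.11.15.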

Additional observations from a re-analysis of the deposited data

Results flagged for a closer look

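Of 65 genes among the members and the pathway lists, 11 had a clone whose gap to the nearest other clone was too large a share of the whole range over 9 clones by Dixon's 95% critical value, where chance marks about 1 in 20 genes, or 3.25 of these. In 8 of the 11, the clone was A1 and stood above the others. Gaps were taken on normalized counts and not on log2 values, a scale that widens gaps at the high end. Ly86, at 67.8 in A1 and 990 in the next clone, had a gap of 0.258 and was not marked. Cd14 was the only member, with a gap of 0.723 of the range, at 6219 normalized counts in A1 and 3913 in the next clone. Fos had a gap of 0.768, at 4692 against 1386, and Cxcl2 one of 0.744, at 429 against 180. Tnf was at 1232 against 755 with a gap of 0.597, and Ccl4 at 1339 against 872 with a gap of 0.516. Dusp1, an inhibitor of kinases that these receptors switch on, had a gap of 0.646, at 3291 against 2034. Il1rl1, at 54.7 against 26.5, had a gap of 0.576, and Sigirr, at 8.75 against 2.95 and so near the floor of 3 reads, a gap of 0.663. What sets A1 apart was not tested, since prefix A holds 1 library.

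In other clones, Lbp, a serum carrier of lipopolysaccharide, was at 563 in C4 against 197, with a gap of 0.656. Traf3 was at 1823 in C2 against 1582, with a gap of 0.551, and Chuk at 1788 in C1 against 1527, with a gap of 0.519.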

How the results depend on the processing

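Between prefixes B and C, the count of called genes was 29, and 23 to 36 under other scalings by the median of ratios, upper quartile or total, filters, a pseudocount of 0.1 and voom. It was 10 to 263 when a library was left out, 263 without C3 and 10 without B1 or C4, and 11 without B3, 16 without B2, 17 without C2 and 18 without B4, and 0 members passed in each. Scaled to the macrophage markers it was 7781, of which 65 were higher in prefix B and 7716 in prefix C, with 2 members called. Under that scaling the differences were -0.47 for Tlr2, -0.40 for Tlr3, -0.21 for Tlr4, -0.16 for Tlr6, -0.25 for Tlr7, -0.021 for Tlr13 and -0.38 for Cd14, while those of Tlr1, Tlr8 and Tlr9 stayed above 0. That of Tlr2 was -0.080 to 0.17 without single libraries, below 0 without C1 and, at -0.00057, without B3. Of the 8 relations, 2 passed by r, and 0 did without the 2 farthest clones or centred within prefixes. With the mean log2 of the macrophage markers in place of their sum, which was not planned, 4 passed (receptor sum r = 0.987). Without the 2 farthest clones r was 0.702 for Tlr8 with Tlr7, 0.701 for Unc93b1 with Tlr13, -0.23 for Tlr6 with Tlr2 and -0.30 for Cd14 with Tlr4. Centred within prefixes r was 0.938, 0.805 and, for Cd14 with Tlr2, -0.17, and the last was -0.078 without the prefix A library. Cd14 with Tlr4 was at -0.023 with median-of-ratios, -0.031 with upper quartile and -0.0072 with total scaling, and Ly96 with Tlr4 passed with total scaling (r = 0.773). On the macrophage markers, 2748 genes and 7 members passed. With prefix as a term these were 14 and 0, and without single libraries 940 to 2681 and 3 to 7, with 1072 and 4 members without B1, 940 and 3 members without C2 and 1274 genes without B3. Median-of-ratios scaling left 6 members, without Tlr9. Slopes that turned were those of Tlr3 (-0.055) and Cd14 (0.24) with prefix as a term, Cd14 without A1 (0.27, the highest of -0.26 to 0.27 without single libraries) and Tlr2 without B3 (-0.017) or C1 (-0.13, the lowest of -0.13 to 0.21). On the fibroblast markers, 2133 genes and 4 members passed, 6 and 0 with prefix as a term, and 740 to 2470 and 0 to 4 without single libraries. These were 740 genes without A1, 1082 without B1, 781 without B3, 1364 without B4 and 1038 without C2, with 0 members without B1, B3 or C2 and 2 without A1, B2, B4 or C4. With prefix as a term, slopes were 0.043 for Tlr3, 0.088 for Tlr9 and -0.13 for Cd14, and that of Cd14 was -0.20 to 0.47 without single libraries, below 0 without A1. The cause of these changes was not tested, apart from the fewer samples or the added term of each fit. The order of levels was not run for want of gene lengths. Column names of prefixes B and C share 2 numbers of unstated meaning, and deviations of same-numbered clones correlated at -0.033 and -0.022, so the clones were taken to share only a number. With a replicate block over these 4 libraries, chosen after seeing the data, 1 gene passed, against 5 without it, and 0 members in both. Depth limits Tlr6 and Tlr9 most, with as few as 68 and 89 reads.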
